A study of Mus musculus and Macaca nemestrina with 20 samples.

Results

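The macrophage genes of the dorsal root ganglion were a list of 31 symbols chosen by name for what the genes are known to mark in macrophages. Earlier results of these data were known when the list was made. They hold 12 core lineage genes, 4 Fc receptors and signalling adaptors, 5 genes of perivascular macrophages, and 10 genes of lipid handling or activation. All 31 were among the 29766 genes of the mouse table, and 29 passed the filter on low counts; Marco, a scavenger receptor, and Nos2, inducible nitric oxide synthase, did not. In the monkey table of 35194 genes, 28 were found under the same symbol in capitals and 25 passed. LYZ2, FCGR1 and FCGR3 were not matched there. This speaks to the symbols only, and not to whether the genes are present under other names.

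Macrophages live inside sensory ganglia, around the neuronal cell bodies and along the vessels, where they take up debris and respond to nerve injury. Their identity rests on the transcription factor PU.1, the product of Spi1, and on signalling through the CSF1 receptor. Macrophages beside vessels typically carry Lyve1, Mrc1, Cd163 and Folr2, while macrophages that handle lipid or respond to damage turn on Trem2, Gpnmb, Spp1 and related genes.

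Bulk RNA of whole ganglia was sequenced from mice, with 7 libraries labelled ADAM17 KO and 7 labelled ADAM17 flox, the controls. ADAM17 is a membrane protease that sheds cytokines, receptors and growth factors. They came in 2 batches by their labels, the first with 4 knockout and 3 flox libraries, the second with 3 of the former and 4 of the latter. A separate experiment in pig-tailed monkeys (Macaca nemestrina) also used dorsal root ganglia. It compared 3 ganglion libraries labelled as from SADBE-treated skin with 3 labelled vehicle, from control skin. SADBE is an agent that provokes contact dermatitis. The labels give no Cre driver, deleted part, cell type, age or sex for the mice, no dose or time for the monkeys, and no number of animals per library. P-values therefore measure only the spread between libraries, which may be technical.

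Adam17 itself did not separate the labels. In counts-per-million (CPM) on TMM-scaled library sizes, it ran from 16.1 to 33.3 for knockout and from 20.7 to 29.3 for flox in batch 1, and from 23.5 to 34.6 and from 17.6 to 33.3 in batch 2. Its log2 fold change was 0.03 ± 0.18 (SE, n = 7 against 7; edgeR's quasi-likelihood test, Benjamini-Hochberg adjusted p = 0.930). The tables count reads per gene and the labels do not name the deleted part, so this level cannot check the label, and knockout is used throughout for the libraries labelled so. Depth differed between genotypes in batch 1, where total counts in mega-counts (M) ran over 12.1 to 14.7 M for knockout against 46.9 to 52.1 M for flox. They ran over 27.9 to 30.8 M against 30.9 to 36.0 M in batch 2, and over 9.02 to 27.1 M in monkeys. Genes of sensory neurons were present in every group, with 8 genes summing to between 2503 and 7753 CPM in mice, and so were genes of Schwann cells and satellite glia.

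Levels between genes were compared in transcripts-per-million (TPM), the share of transcripts after scaling by transcript length. The mouse TPM columns sum to different totals, lower in batch 1, so the order of genes is firmer than their exact level. In the 7 flox libraries Lyz2, the macrophage and neutrophil lysozyme, was highest at 356.2 ± 63.0 TPM (SD, n = 7), followed by Spp1, which encodes the secreted protein osteopontin, at 310.9 ± 72.5. Their library ranges overlapped, and both lay above every other member in all 7 flox libraries. Next came Tyrobp, the adaptor that carries the signal of TREM2, at 80.6 ± 20.1 TPM, and Fcer1g, the common gamma chain of Fc receptors, at 64.5 ± 13.6, again with overlapping ranges. Axl, a receptor for the bridging ligand GAS6, stood at 24.4 ± 6.56 TPM, Aif1, the actin-binding protein IBA1, at 18.3 ± 6.62, and the lysosomal protein gene Cd68 at 11.8 ± 4.21.

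The perivascular genes were of middle rank. Lyve1, a hyaluronan receptor, led them at 7.74 ± 3.35 TPM in flox libraries, with a range from 3.78 to 12.2. The other 4 had means from 2.25 (Cd163, the haemoglobin scavenger receptor) to 6.73 (Mrc1, the mannose receptor). The genes used most often to mark macrophages were modest, with Csf1r at 8.86 ± 2.39 and Adgre1, which encodes F4/80, at 2.81 ± 0.89. At the bottom lay Itgax, Nos2 and Marco, with mean levels of 0.12, 0.035 and 0.0063 TPM. Spp1 is also made by cells other than macrophages, and a bulk library does not tell which cells its RNA came from. The same limit holds for every other member, Tmem119 and Axl included.

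**Figure D1:**
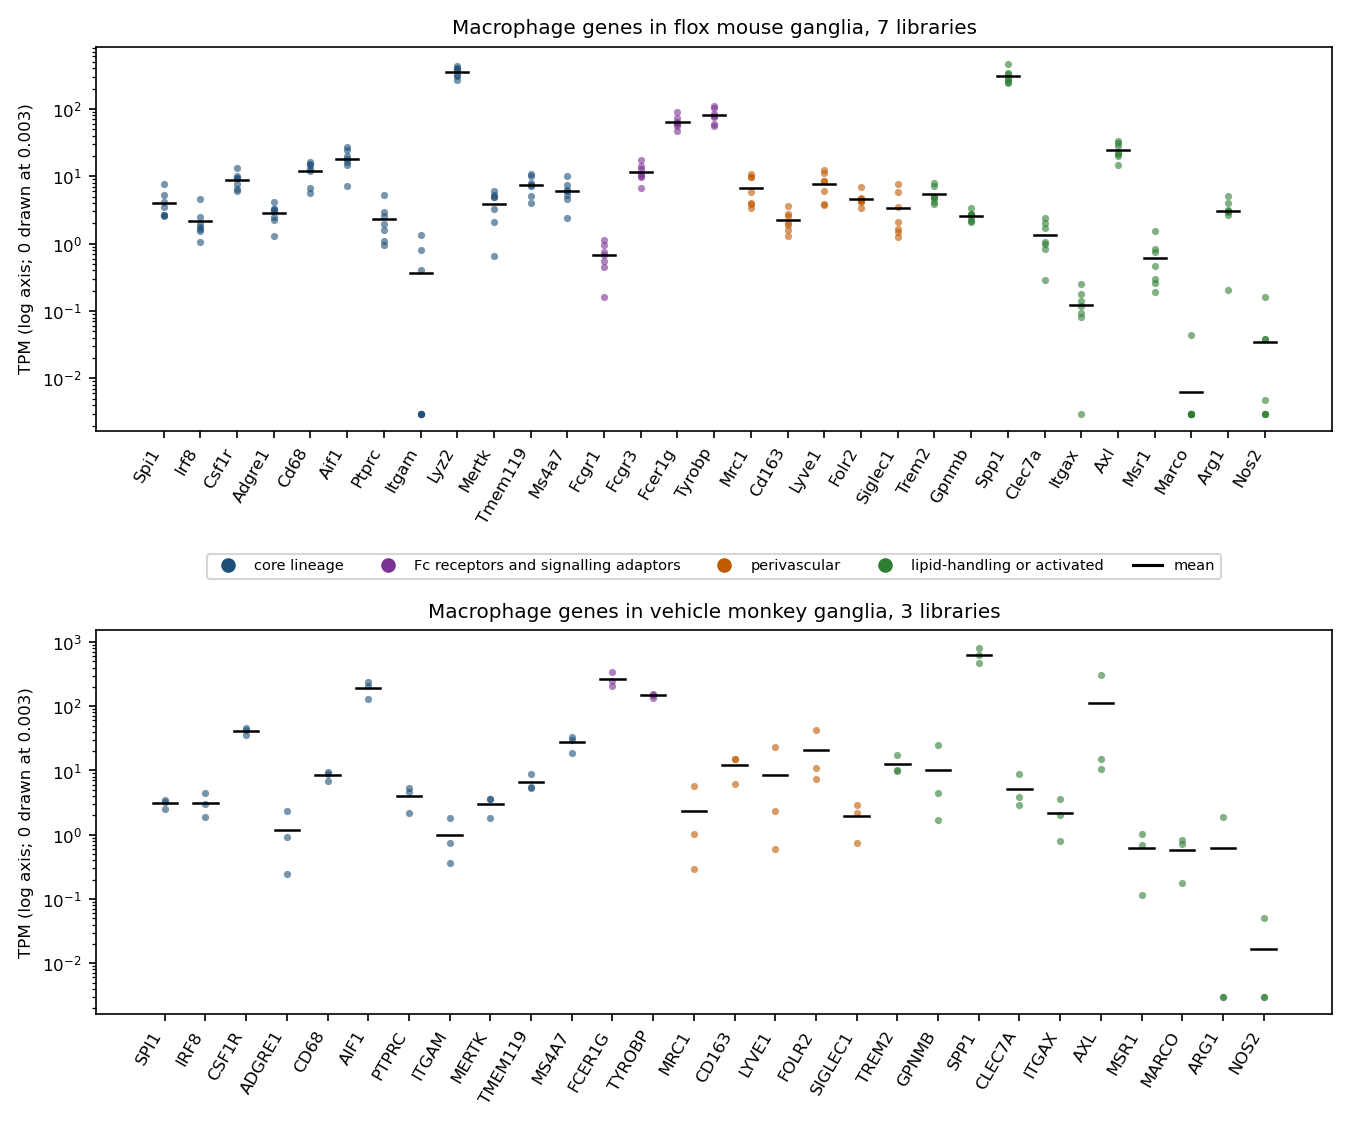
TPM on a log axis for each macrophage gene in the 7 flox mouse libraries (top) and the 3 vehicle monkey libraries (bottom), coloured by role, with a bar at the mean; values of 0 are drawn at 0.003. Lyz2 and Spp1 sit highest in mice and SPP1 in monkeys, while Marco and Nos2 sit at the bottom in mice.

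The first comparison set knockout against flox ganglia, with batch in the model. Of 29 members tested, 7 were called at an adjusted p under 0.05, beside 15.5% of the 15654 genes tested. The members moved in both directions. Itgam, Ptprc and Lyz2 were higher in knockout libraries (3 members, beside 7.97% of all genes), and Folr2, Arg1, Tmem119 and Axl were lower (4 members, beside 7.51%). The median log2 fold change was 0.22 over the 29 members and -0.0078 over all genes, with 16 members above 0 and 13 below. In bulk RNA, more cells of a type and more RNA per cell cannot be told apart.

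By role, core lineage genes split into 3 higher and 1 lower of 12 tested. None of the 4 Fc receptors and adaptors was called by edgeR, DESeq2 or limma voom. With edgeR 2 of them had an unadjusted p under 0.05, beside 30.9% of all genes. Of the 5 perivascular genes 1 was lower, and of the 8 tested genes of lipid handling or activation 2 were lower and none was higher with edgeR, while limma voom called Clec7a higher. The medians were 0.29, 0.38, -0.26 and 0.09 on the log2 scale, in the same order. Whether these roles differ from each other was not tested.

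Among the core lineage genes Itgam, the integrin alpha chain CD11b (GRCm38 chromosome 7, 128062640 to 128118491, plus strand), had the largest fitted fold change. Knockout libraries of batch 1 held 7.79, 12.8, 18.5 and 2.94 CPM, and flox libraries of that batch 5.44, 2.24 and 3.35. The lowest knockout value lay between the flox values, so the groups overlapped in batch 1. In batch 2 knockout libraries held 27, 25 and 34 counts, or 1.09, 0.95 and 1.44 CPM, and all 4 flox libraries held 0 counts. Against a floor of 3 counts over those 4 flox libraries, Itgam was at least 48.4-fold higher in knockout libraries of batch 2. The fit over both batches gave a log2 fold change of 2.76 ± 0.67 (SE; edgeR's quasi-likelihood test, adjusted p = 0.0129), a value that depends on the prior count because of the zeros. A predicted gene, Gm49368, overlaps Itgam on the same strand, so reads of the overlap cannot be assigned with certainty. Its part in the zeros, and so in the fold changes, was not tested.

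Ptprc, the leukocyte phosphatase CD45 (chromosome 1, 138062861 to 138175708, minus strand), stood at 16.2, 19.2, 25.8 and 29.0 CPM in knockout and 9.30, 16.4 and 20.3 in the flox ones of batch 1. These overlapped. The second batch held 13.03, 13.7 and 13.4 in knockout and 4.76, 5.80, 7.19 and 3.58 in flox libraries, without overlap. The log2 fold change was 0.94 ± 0.22 (SE; edgeR, adjusted p = 0.00956).

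Lyz2 (chromosome 10, 117277331 to 117282321, minus strand) held 328, 428, 731 and 468 CPM in knockout and 263, 431 and 419 in flox libraries of batch 1, with overlap. All 3 knockout libraries of batch 2, at 459.9, 615 and 803 CPM, were above the 4 flox libraries, at 306, 318, 403 and 351. Its log2 fold change was 0.63 ± 0.18 (SE; edgeR, adjusted p = 0.0299). Lyz1 is a near-identical neighbour, so reads could be split between the pair.

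Tmem119, a membrane protein known from microglia (chromosome 5, 113793729 to 113800516, minus strand), went the other way. Its levels in batch 1 were 3.46, 8.27, 8.32 and 8.97 CPM in knockout and 9.47, 20.1 and 14.7 in flox libraries, without overlap. In batch 2 they were 3.88, 10.2 and 8.83 against 19.7, 6.36, 17.6 and 11.9, where a single flox library lay inside the knockout range. The log2 fold change was -0.94 ± 0.29 (SE; edgeR, adjusted p = 0.0407).

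The other 8 core lineage genes were not called, with log2 fold changes from -0.47 (Cd68) to 0.62 (Spi1) and edgeR adjusted p from 0.156 to 0.811. Csf1r, the receptor that macrophages need to survive, was at -0.09 ± 0.17 (SE), and Adgre1 at 0.36 ± 0.28. These 8 lay on each side of 0, while the pan-leukocyte gene Ptprc and the myeloid genes Itgam and Lyz2 were higher.

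The 4 Fc receptors and adaptors all had positive values, from 0.17 (Fcgr1) to 0.52 (Fcgr3) on the log2 scale, with adjusted p from 0.116 to 0.790. Fcgr1, named after its values were seen, was without overlap in each batch but in opposite directions, at 1.19 to 1.51 CPM in knockout below 1.68 to 2.55 in flox libraries of batch 1, and at 1.74 to 2.42 above 0.35 to 1.41 in batch 2. Tyrobp, the highest of them in TPM, held 15.1, 22.5, 35.4 and 42.7 CPM in knockout and 20.2, 30.2 and 31.8 in flox libraries of batch 1, where the knockout libraries spanned the flox ones. In batch 2 its knockout libraries held 39.4, 48.1 and 61.5 CPM and its flox libraries 28.1, 25.1, 34.8 and 35.8, without overlap. Over both batches the log2 fold change was 0.38 ± 0.21 (SE; edgeR, adjusted p = 0.236).

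Folr2, the folate receptor beta of perivascular macrophages (chromosome 7, 101839988 to 101857194, minus strand), was the clearest of all members. Its knockout libraries held 0.25, 0.58, 0.79 and 0.56 CPM in batch 1, and 0.77, 1.83 and 1.87 in batch 2. The flox libraries held 2.77, 5.01 and 4.00 CPM in batch 1, and 5.81, 3.44, 3.32 and 3.05 in batch 2. Every knockout library was below every flox library, and Folr2 was the only member of 29 without overlap in the same direction in both batches, beside 5.49% of all genes tested (3.25% higher and 2.25% lower). The log2 fold change was -2.07 ± 0.36 (SE; edgeR, adjusted p = 0.00148). Predicted genes on the other strand overlap it, and strand is not stated for these libraries, so reads of the overlap cannot be assigned with certainty.

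The other 4 perivascular genes did not follow Folr2 past the threshold. Their log2 fold changes ran from -0.37 (Cd163) to 0.41 (Siglec1, the sialic acid receptor CD169), with edgeR adjusted p from 0.234 to 0.839. Lyve1 held 10.3, 10.8, 13.5 and 22.8 CPM in knockout and 18.9, 36.8 and 26.0 in flox libraries of batch 1, and 12.5, 14.96 and 17.0 against 8.56, 7.15, 17.0 and 11.8 in batch 2. Its knockout libraries thus lay mostly below the flox ones in batch 1 and mostly above them in batch 2. Its log2 fold change was -0.26 ± 0.28 (SE; edgeR, adjusted p = 0.568).

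Among the genes of lipid handling or activation, Axl (chromosome 7, 25757273 to 25788705, minus strand) held 51.4, 56.7, 54.9 and 77.0 CPM in knockout and 53.0, 106 and 122 in flox libraries of batch 1. The second batch held 38.7, 61.5 and 56.1 against 74.6, 67.6, 103.7 and 90.1, without overlap. A single low flox library made the groups overlap in batch 1. The log2 fold change was -0.66 ± 0.18 (SE; edgeR, adjusted p = 0.0186).

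Arg1, the arginase of alternatively activated macrophages (chromosome 10, 24915221 to 24927484, minus strand), was low throughout. Knockout libraries held 0.31, 0.58, 0.92 and 0.79 CPM in batch 1 and 1.33, 1.14 and 2.42 in batch 2. Flox libraries held 0.24, 4.75 and 3.23 CPM in batch 1 and 6.09, 3.06, 3.48 and 4.17 in batch 2. Flox library 1, at 14 counts, was the lowest of all 14 and the sole reason for overlap in batch 1. Its log2 fold change was -1.70 ± 0.48 (SE; edgeR, adjusted p = 0.0267).

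Spp1 led this role in TPM. It held 205, 268, 214 and 201 CPM in knockout and 324, 393 and 533 in flox libraries of batch 1, without overlap, and 212, 383 and 329 against 307, 237, 349.6 and 329 in batch 2, where they overlapped. The fit over both batches gave -0.45 ± 0.18 (SE; edgeR, adjusted p = 0.111). The other 5 uncalled genes of this role had log2 fold changes from -0.14 (Msr1, a scavenger receptor) to 1.11 (Clec7a, the beta-glucan receptor dectin-1). Trem2, the lipid receptor of this state, was at 0.39 ± 0.24 (adjusted p = 0.273) and Gpnmb, a lysosomal glycoprotein, at 0.54 ± 0.21 (adjusted p = 0.1005). Trem2, singled out after its values were seen, was high in knockout libraries 6 and 7, at 12.2 and 10.4 CPM, and between 3.97 and 5.74 CPM in the other 12 libraries.

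**Figure D2:**
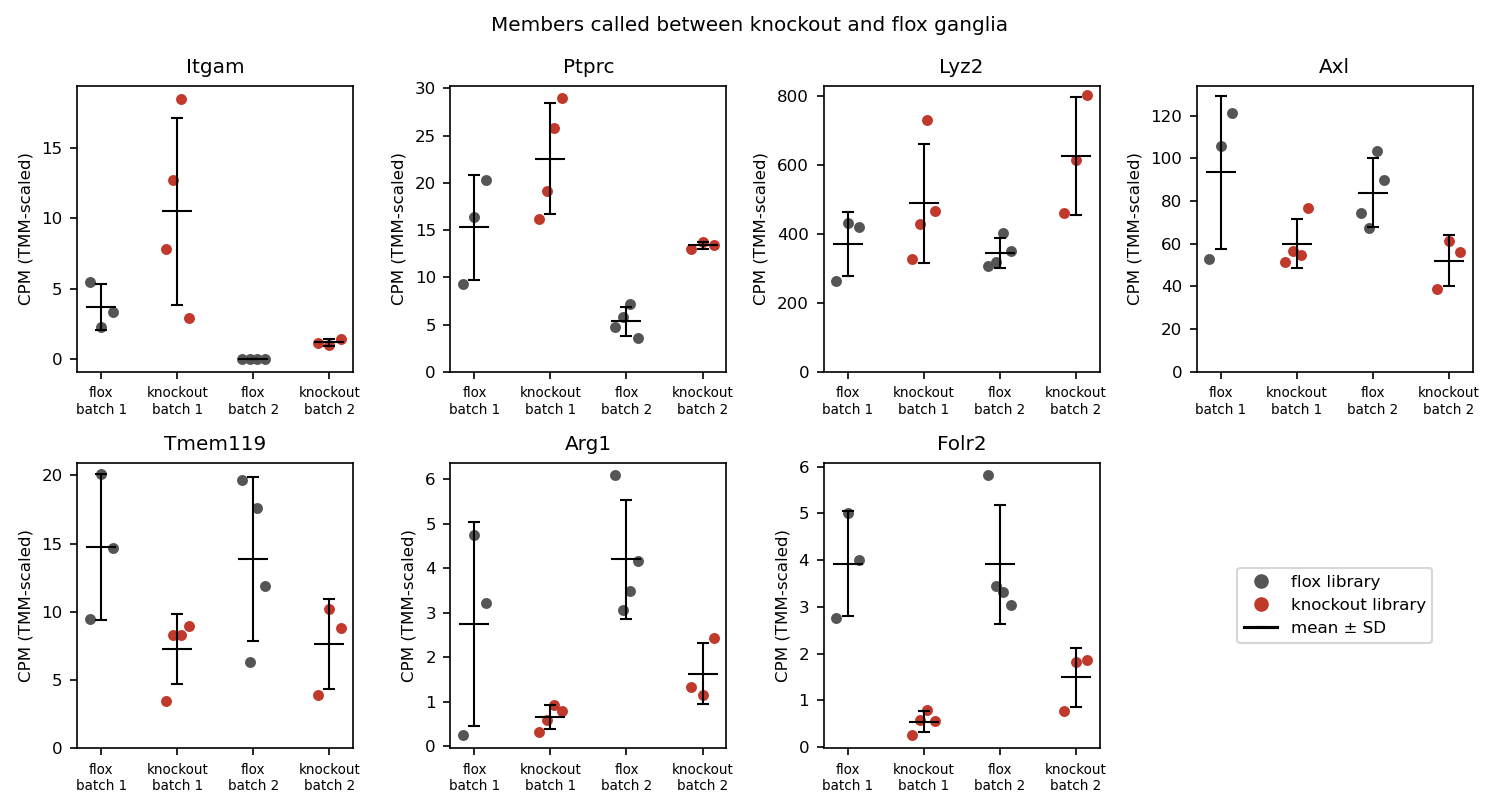
CPM of the 7 called members in each mouse library, by batch and genotype, with bars at the mean ± SD (n = 3 or 4). Folr2 separates the genotypes in both batches, and Itgam is at 0 in the 4 flox libraries of batch 2.

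The calls differed in how far they depended on single libraries. Folr2, Ptprc and Itgam remained called whichever of the 14 libraries was left out. Lyz2 lost its call in 7 of the 14 fits (edgeR adjusted p up to 0.0787), those without knockout library 3, 6 or 7 or flox library 1, 4, 5 or 7. Tmem119 lost it in 10 (up to 0.0987), without any library but knockout 4 and 6 and flox 1 and 5. Arg1 lost it in 5 (up to 0.0730), without knockout library 5 or 6 or flox library 2, 3 or 4. Axl lost it without knockout library 5 or flox library 3 (0.0507 and 0.0528). Lyz2 and Ptprc also missed the threshold without knockout libraries 6 and 7 together (0.206 and 0.0525), while Spp1 then passed it (-0.78, 0.00576). With limma voom, the values for Itgam, Tmem119 and Arg1 were 0.0605, 0.0671 and 0.186, and Clec7a passed the threshold (1.78, adjusted p = 0.0481).

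**Figure D3:**
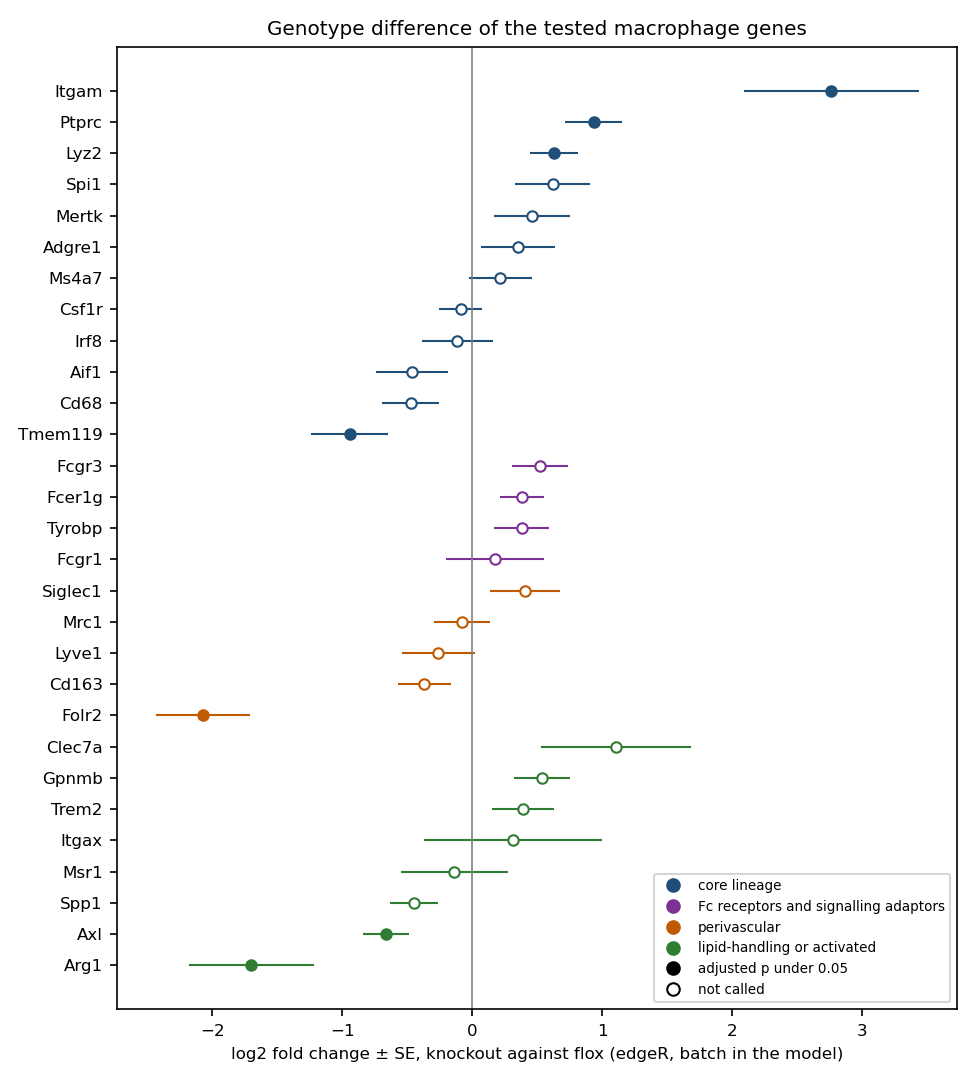
Log2 fold change ± SE of knockout against flox for the 29 tested members, grouped by role, with filled points for an adjusted p under 0.05. The called core lineage genes lie on both sides of 0, and the called perivascular and activation genes lie below it.

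The mice of each batch can be read apart. Of 28 members with a value in both batches, 12 were higher in knockout libraries of both, 7 were lower in both, and 9 were lower in batch 1 and higher in batch 2. None went the opposite way. This split was counted over the members only, so it is a description and is not shown to be particular to them. The 9 were Irf8, Csf1r, Adgre1, Aif1, Fcgr1, Mrc1, Lyve1, Trem2 and Spp1, which include the macrophage receptors Csf1r and Adgre1 and the perivascular pair Mrc1 and Lyve1. Aif1 was at -1.11 ± 0.41 (SE) on the log2 scale in batch 1 and 0.12 ± 0.24 in batch 2, and Lyve1 at -0.96 ± 0.32 and 0.41 ± 0.30.

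In batch 1 alone edgeR called Folr2 (-2.88 ± 0.46, adjusted p = 0.0198) and Spp1 (-0.94 ± 0.20, adjusted p = 0.0497), 2 members, beside 1.8% of genes. In batch 2 alone it called 6 members, Ptprc, Itgam, Lyz2, Fcer1g and Tyrobp higher and Axl lower, beside 13.2% of genes. Fcer1g was at 0.63 ± 0.17 (adjusted p = 0.0358) and Tyrobp at 0.69 ± 0.19 (adjusted p = 0.0389) there. Folr2 in batch 2 alone was at -1.39 ± 0.45 (adjusted p = 0.0676).

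The test of the difference between batches called only Itgam among the 29 members, beside 1.03% of all genes, with an interaction of 6.64 ± 1.30 (SE, log2; edgeR, adjusted p = 0.0321) that rests on the zeros of the batch 2 flox libraries. For the 9 members with opposite signs the interaction had an adjusted p of 0.146 (Spp1) or more, so a difference between batches was not shown for them. Depth differed between genotypes in batch 1 and much less in batch 2, and its part in these values was not tested.

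**Figure D4:**
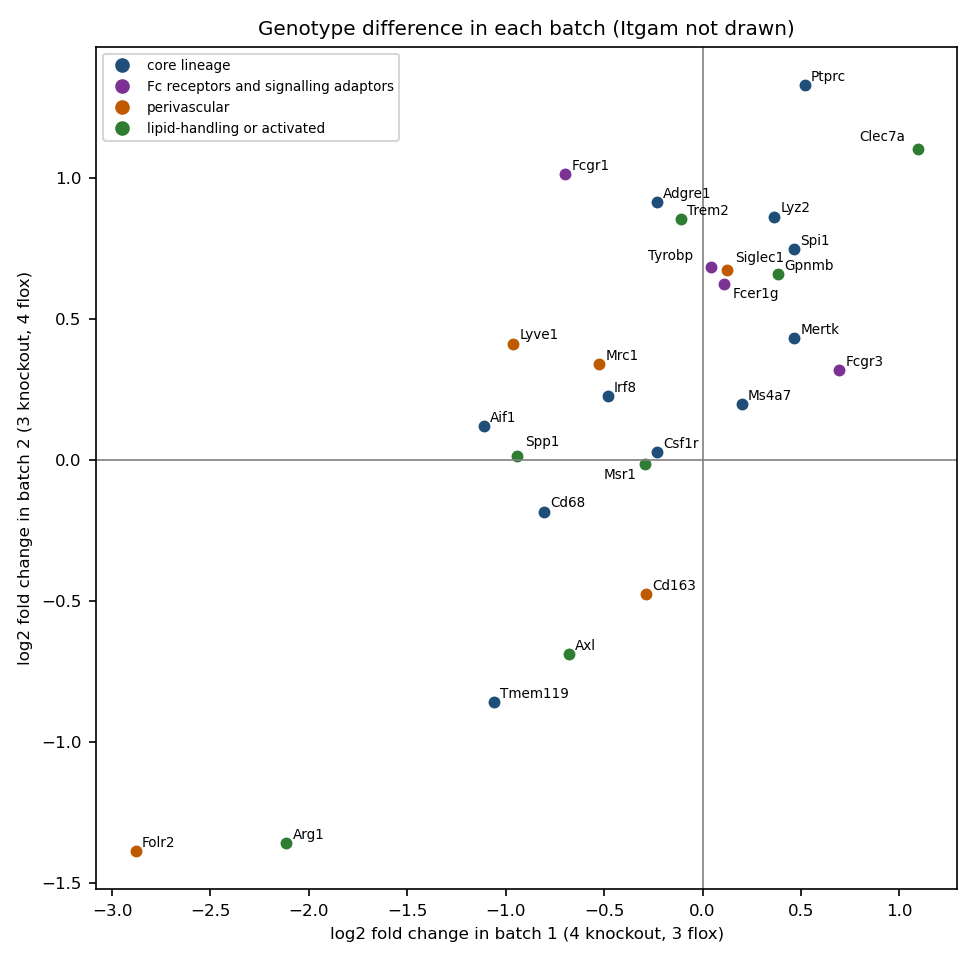
Log2 fold change of each member in batch 1 (horizontal axis) and batch 2 (vertical axis), coloured by role; Itgam is not drawn because its batch 2 value depends on the prior count, and Itgax had no value in batch 1. The upper left field holds the 9 members lower in batch 1 and higher in batch 2, and the lower right field is empty. The same split was not counted over all genes.

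Genes of other myeloid cells were read from their own lists. Over all genes tested edgeR called 7.97% higher and 7.51% lower, the shares to set beside each mouse list that follows. The lists were chosen with earlier results of these data known, so counts beside these shares are a description only. Of 10 neutrophil genes, 9 were higher in knockout libraries, among them S100a8 (3.12 ± 0.37, adjusted p = 9.83e-05), S100a9 (3.19 ± 0.38, adjusted p = 9.83e-05), Retnlg (2.89 ± 0.38, adjusted p = 0.000190) and Ngp (3.10 ± 0.42, adjusted p = 0.000301). Their summed level was 1463 to 5257 CPM for knockout against 200.8 to 656.5 for flox in batch 1, and 735.5 to 1229 and 70.3 to 133.4 in batch 2, with no neutrophil gene at 0 in any group. Of 6 monocyte genes 4 were higher, among them Chil3 (3.51 ± 0.40), Ly6c2 (1.97 ± 0.34) and Plac8 (2.03 ± 0.46). The monocyte sum was 169.0 to 617.9 CPM for knockout against 40.5 to 90.5 for flox in batch 1, and 70.3 to 138.7 and 16.6 to 26.1 in batch 2. Neutrophils and monocytes also make Itgam, Ptprc and Lyz2, the 3 members that were higher, and the part of these cells in the 3 values was not tested.

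None of the 5 tested dendritic cell genes was called by edgeR, DESeq2 or limma voom. With edgeR 0 of them had an unadjusted p under 0.05, beside 30.9% of all genes. The 5 tested lymphocyte genes held 1 higher (Nkg7, 1.83 ± 0.42) and 1 lower (Ms4a1, -2.08 ± 0.56). Genes of lymphatic vessels, which also carry Lyve1, held 1 lower of 4, the chemokine gene Ccl21a (-2.50 ± 0.44). Of 4 mast cell genes Cma1 (-2.70 ± 0.64) and Mcpt4 (-2.38 ± 0.66) were lower. Schwann and satellite glia genes were lower in 4 of 6, among them Prx (-1.18 ± 0.23), Mbp (-0.86 ± 0.17) and Sox10 (-0.75 ± 0.16). Sensory neuron genes were higher in 3 of 8, Isl1 (1.09 ± 0.11), Tubb3 (0.59 ± 0.09) and Prph (0.45 ± 0.13). The melanocyte gene Tyrp1 was higher (0.81 ± 0.17; 1 of 2 tested), and the proprioceptive neuron gene Ntrk3 lower (-0.60 ± 0.17; 1 of 4). The share of counts from mitochondrial genes was 8.21% to 8.70% for knockout and 8.22% to 10.9% for flox in batch 1. It was lower in batch 2 and did not overlap between genotypes there, at 0.734% to 1.03% and 1.40% to 1.76%. The part of the cell makeup and of this share in the macrophage values was not tested.

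The wider macrophage pathway was read from lists of genes outside the 31. Of 25 other macrophage genes, 5 were higher and 3 lower. The lower ones were Ly86, a partner of a Toll-like receptor relative (-0.77 ± 0.12, adjusted p = 0.000429), Gas6 (-0.77 ± 0.12, adjusted p = 0.000604) and Cbr2, a carbonyl reductase (-1.37 ± 0.23, adjusted p = 0.00107). Cd53, a leukocyte tetraspanin, led the higher ones (1.05 ± 0.20, adjusted p = 0.00280), and the rest were Ctss, Cybb, Itgb2 and Lcp1. Itgb2 encodes the beta chain that pairs with CD11b, and stood at 0.89 ± 0.24 (adjusted p = 0.0203).

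Both ligands of the CSF1 receptor were lower, Il34 at -0.57 ± 0.15 (edgeR, adjusted p = 0.0204) and Csf1 at -0.55 ± 0.17 (adjusted p = 0.0391). Neither was called in a batch taken alone, with log2 values of -0.73 and -0.61 in batch 1 and -0.44 and -0.52 in batch 2 (adjusted p from 0.134 to 0.292). Csf2rb, the shared chain of the receptors for GM-CSF and its relatives, was higher (1.77 ± 0.34, adjusted p = 0.00291), and 2 of the 5 genes of that list were not called by edgeR (DESeq2 called 4 of the 5 and limma voom 2). Gas6, the ligand of AXL, was lower like Axl itself, with means of 102 and 161 CPM in knockout and flox libraries; of the 3 genes in the list of ligands and partners, Pros1 and Tyro3 were not called.

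Of 16 genes listed for TREM2 signalling and lipid handling, edgeR called 5 higher and none lower, beside 7.97% and 7.51% of all genes. Whether they depend on TREM2 was not tested. Lgals3, which encodes galectin-3, rose by 1.79 ± 0.18 (SE, log2; edgeR, adjusted p = 9.49e-06), and Plin2, the coat protein of lipid droplets, by 0.82 ± 0.11 (adjusted p = 0.000163). Ctsl (0.41 ± 0.09), Cst7 (2.49 ± 0.64) and Ctsb were the others. These genes are also used by neurons, glia and other leukocytes. Both other Fc gamma receptors were higher, Fcgr2b at 1.17 ± 0.17 (adjusted p = 0.000407) and Fcgr4 at 1.94 ± 0.48 (adjusted p = 0.0132).

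Promoters were read for the members that had one on record, since PU.1 binds a purine-rich core. RefSeq promoters (GRCm38.p6) matched 21 of the 31 members, with 28 start sites. The called members Arg1 and Tmem119, both lower, were not matched and are left out of what follows. The 250 bases before each start were searched for GAGGAA and its reverse complement TTCCTC, on both strands. The motif was found before 14 of the 28 starts (50%) and before 23.3% of all 32851 starts. Starts of a gene can share a match, as those of Fcgr3 and of Clec7a did, lying a few bases apart. Counted by gene, 12 of the 21 matched members had the motif. No count by gene was made over all genes, so the shares of starts are a description only. Windows of 4 called members are shown because they include the clearest member that was higher and the clearest that was lower, with the motif in capitals and otherwise lower case.
Itgam, chr7:128062390-128062639, plus strand: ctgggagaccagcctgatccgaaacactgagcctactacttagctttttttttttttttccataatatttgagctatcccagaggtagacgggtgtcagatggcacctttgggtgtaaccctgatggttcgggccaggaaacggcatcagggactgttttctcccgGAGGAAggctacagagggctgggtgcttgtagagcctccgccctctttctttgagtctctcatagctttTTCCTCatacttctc
Ptprc, chr1:138175306-138175555, minus strand: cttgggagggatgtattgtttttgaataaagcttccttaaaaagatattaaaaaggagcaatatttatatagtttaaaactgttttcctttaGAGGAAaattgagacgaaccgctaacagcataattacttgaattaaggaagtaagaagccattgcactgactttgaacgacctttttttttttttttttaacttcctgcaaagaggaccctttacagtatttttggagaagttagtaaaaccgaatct
Axl, chr7:25788734-25788983, minus strand: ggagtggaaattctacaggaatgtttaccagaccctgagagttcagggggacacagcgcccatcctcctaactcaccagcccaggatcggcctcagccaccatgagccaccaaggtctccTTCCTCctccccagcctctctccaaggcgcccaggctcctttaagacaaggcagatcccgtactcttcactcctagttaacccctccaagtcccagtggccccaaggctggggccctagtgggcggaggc
Folr2, chr7:101857191-101857440, minus strand: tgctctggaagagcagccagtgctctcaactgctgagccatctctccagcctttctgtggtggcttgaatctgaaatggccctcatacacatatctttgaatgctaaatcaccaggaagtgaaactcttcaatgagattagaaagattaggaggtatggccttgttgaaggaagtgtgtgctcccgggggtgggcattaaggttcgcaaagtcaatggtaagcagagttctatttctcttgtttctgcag
The Itgam window holds 2 matches, the Ptprc and Axl windows 1 each, and the Folr2 window none, as is the case for Lyz2. Ptprc and Folr2 each have a second start in the table, and neither of those windows holds a match. The motif thus stood before members that were higher and before a member that was lower. A match is a description of letters, not a bound site, and this motif was chosen after the calls had been seen.

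The second comparison set SADBE against vehicle in monkeys, and the libraries need a word first. Across 17988 genes vehicle library 3 correlated best with SADBE libraries 2 and 3 (Pearson r of log2 CPM of 0.937 and 0.936 across genes) and less with vehicle libraries 1 and 2 (0.807 and 0.886). SADBE library 1 correlated best with vehicle library 2 (0.923). The libraries thus did not group by their labels. AXL, chosen for showing this after its values were seen, held 46.3, 27.4 and 1145 CPM in vehicle libraries 1 to 3 and 27.2, 1196 and 344 in SADBE libraries 1 to 3. SADBE libraries 2 and 3 were also unusually alike, with a chi-square per gene of 26.5 beside 269 to 507 for the other pairs within a group, but above sampling noise, and were counted apart.

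No member was called by edgeR in monkeys, 0 of 25, beside 0% of all 17988 genes. DESeq2 and limma voom called 0 members too, and DESeq2 called 0.15% of all genes. At an unadjusted p under 0.05 there were 2 members, TREM2 and CD163, beside 3.06% of genes. Of the 25 members 18 had lower fitted values after SADBE and 7 higher, with a median log2 fold change of -0.45 beside -0.0077 over all genes. All 5 perivascular genes had values below 0, from -0.57 (SIGLEC1) to -1.68 (LYVE1), but LYVE1, FOLR2 and MRC1 turned positive without vehicle library 1 (0.99, 0.25 and 1.16).

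Groups did not overlap for 5 of the 25 members, beside 9.18% of all genes, with 1 higher (beside 4.63%) and 4 lower (beside 4.56%). TREM2 held 10.3, 7.74 and 8.74 CPM in vehicle and 19.1, 21.0 and 20.4 in SADBE libraries. Every SADBE library was near 20 CPM and every vehicle library near 10 or below, including the libraries that stood apart from their label. Its log2 fold change was 1.17 ± 0.40 (SE; edgeR, adjusted p = 0.999), and it stayed between 1.08 and 1.29 whichever library was left out.

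CD163 held 37.4, 30.96 and 18.4 CPM in vehicle and 11.7, 16.2 and 14.2 in SADBE libraries (-1.04 ± 0.44, edgeR adjusted p = 0.999). Vehicle library 3 was the nearest to the SADBE group. AIF1, the highest core lineage gene of the vehicle libraries in TPM, held 66.4, 64.1 and 48.6 CPM against 18.7, 42.0 and 36.9 (-0.88 ± 0.44, edgeR adjusted p = 0.999).

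SPI1, which encodes PU.1, held 2.76, 2.19 and 2.36 CPM in vehicle and 1.32, 1.24 and 1.47 in SADBE libraries, from 11 to 94 counts per library (-0.86 ± 0.59, edgeR adjusted p = 0.999). IRF8, its partner in myeloid cells, held 6.29, 7.81 and 4.81 against 0.39, 3.37 and 3.53 (-1.39 ± 0.78, adjusted p = 0.999). SADBE library 1 was far below the others for IRF8.

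The remaining genes that led a role overlapped between groups. SPP1 held 700, 774 and 645 CPM in vehicle and 869, 429 and 632 in SADBE libraries (-0.13 ± 0.48), FCER1G 105.7, 62.7 and 72.2 against 13.2, 63.7 and 50.5 (-0.92 ± 0.59), and FOLR2 26.3, 5.55 and 5.33 against 5.09, 7.08 and 7.33 (-0.94 ± 0.69). For FOLR2 a single vehicle library set the difference, and without it the log2 fold change was 0.25. Vehicle library 1 held the highest value for 12 of the 25 members and SADBE library 1 the lowest for 14. Neither count was made over all genes, so neither is shown to be particular to the members. Vehicle library 1 also held the highest neutrophil sum, 1264 CPM, beside 11.6 to 240.3 in SADBE libraries and 21.5 or more in vehicle libraries. The sum of 4 monocyte genes was lower in SADBE libraries without overlap, at 9.34 to 34.8 CPM beside 42.6 to 79.2 in vehicle libraries, as AIF1, SPI1, IRF8 and CD163 were. This was not particular to monocyte genes. The sum of 23 other macrophage genes was also lower without overlap, at 360.9 to 595.5 CPM beside 611.9 to 698.8. So was the 1 other Fc gamma receptor gene found, at 3.72 to 8.54 CPM beside 10.1 to 57.8. The part of neutrophils and monocytes in the values was not tested.

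**Figure D5:**
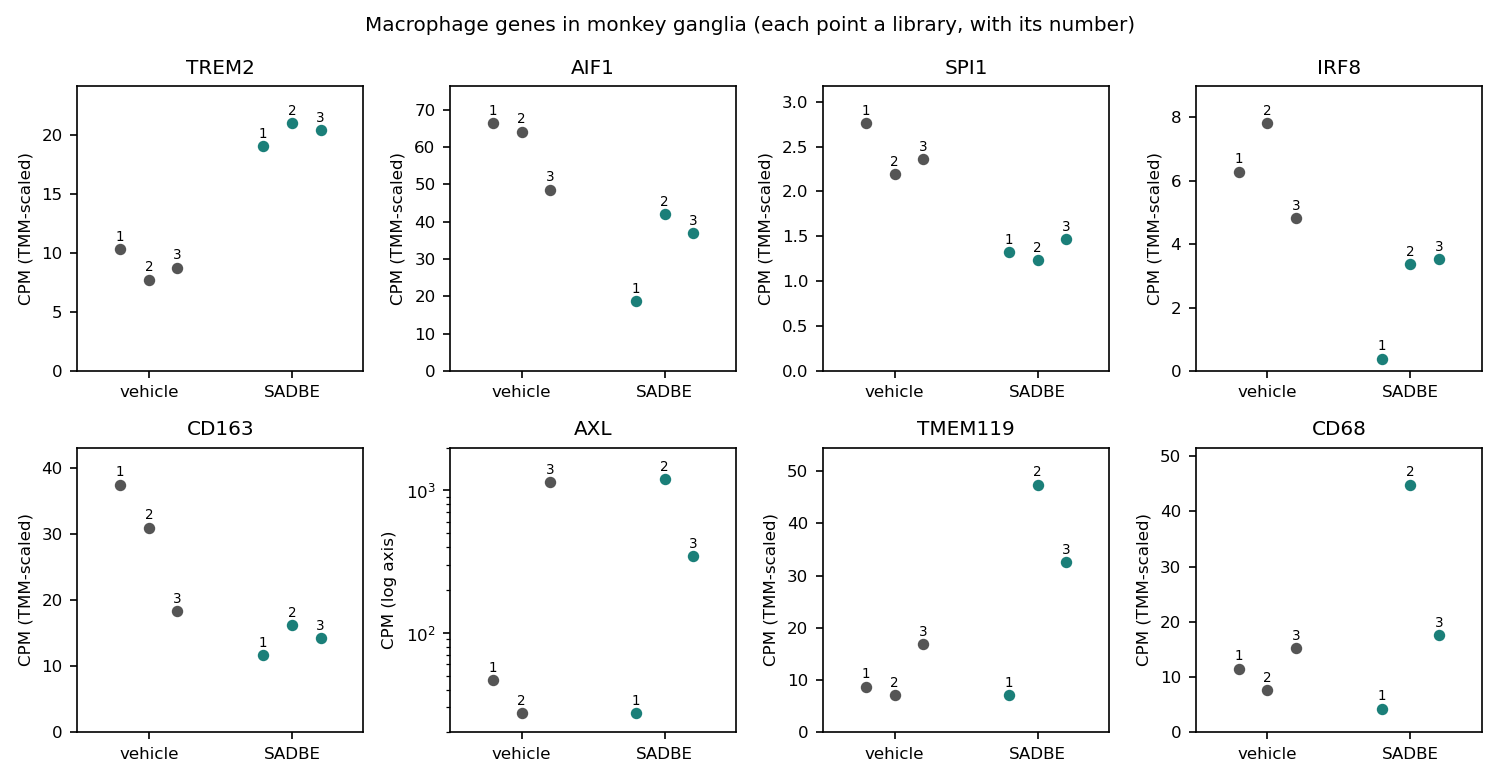
CPM of 8 macrophage genes in the 6 monkey libraries, each point a library with its number; AXL is on a log axis. TREM2 is higher and AIF1, SPI1, IRF8 and CD163 are lower in all SADBE libraries, while AXL, TMEM119 and CD68, drawn after their values were seen, overlap between the groups.

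In vehicle monkey ganglia the order of levels was led by SPP1 at 636 ± 170 TPM (SD, n = 3), FCER1G at 265 ± 68.5, AIF1 at 193 ± 56.1 and TYROBP at 147 ± 11.7. The library range of AIF1 overlapped those of FCER1G and TYROBP, FCER1G lay above TYROBP, and SPP1 lay above all 3. SPP1, FCER1G and TYROBP were thus among the 4 highest members in both species. The sets differed, with 31 members ranked in mice and 28 in monkeys, where Lyz2, the highest mouse member, was not matched by symbol. FOLR2 led the perivascular genes at 20.5 ± 19.6 TPM, a mean set by 1 library. Other macrophage genes outside the 31 gave no call in monkeys (0 of 22 tested by edgeR, DESeq2 and limma voom, with 2 at an unadjusted p under 0.05). Neither did the TREM2 and lipid list (0 of 15, with 1) or the monocyte list (0 of 4, with 1). The share at an unadjusted p under 0.05 was 3.06% over all genes.

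Folr2 was lower in knockout mice (-2.07 ± 0.36), while FOLR2 was at -0.94 ± 0.69 in monkeys and changed sign without 1 library. TREM2 was without overlap between groups in monkeys, and Trem2 was not called in mice (0.39 ± 0.24). The mouse and monkey comparisons differ in perturbation, tables and species, and no test was made between them.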

How the data were processed

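Total RNA of fresh frozen ganglia was sequenced as bulk libraries, per the labels' protocols. The authors deposited estimated counts per gene and TPM per gene, made with kallisto, per the submitters' processing notes; its version, and the monkey transcriptome, are not given in the sources used here, and the build named is GRCm38. The deposited TPM columns were used for levels between genes only. Library strand is not stated. A row that names no gene (0.0785% to 0.186% of mouse counts) was left out.

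Estimated counts were rounded and tested with edgeR 4.0.16 in R 4.3.3 (quasi-likelihood, robust, TMM, Benjamini-Hochberg over all genes, threshold 0.05, filterByExpr by group with minimum count 10 and minimum total 15), with batch as a term in mice. The filter by group was settled after the counts of calls over all genes under it and under a filter by design had been seen. SE comes from the F statistic. CPM is counts scaled by TMM library sizes. DESeq2 1.42.0, limma voom 3.58.1, RLE scaling, no filter, a replicate block, no batch term, each batch alone and leaving out libraries were alternatives. The fit was tested on simulated counts with known changes. These were planted only in genes of higher count, with a single spread for all genes and no batch effect. That test thus does not cover members of low count or the batches. Members, roles and lists were chosen with earlier results of these data known. The genes given in full were the called mouse members, the monkey members without overlap, and the member of highest control TPM in each role. Coordinates come from GENCODE M21. Single genes of the cell type lists that are not named are not reported here.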

Additional observations from a re-analysis of the deposited data

Results flagged for a closer look

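In 6 cases a single library stood apart from the other 6 of its genotype, by the gap to the nearest value on the log2 scale relative to the range (Dixon's 95% criterion). Irf8 was high in knockout library 4, at 10.1 CPM beside 4.69 for the next. Aif1 and Arg1 were low in flox library 1, at 3.82 and 0.242 CPM beside 7.87 and 3.06 for the next. Mertk, a receptor for engulfing dead cells, was low in flox library 4, at 2.43 CPM beside 10.7. Ms4a7 and Clec7a were low in knockout library 3, at 2.71 and 1.98 CPM beside 5.34 and 3.68. Chance alone gives such a gap in about 5% of groups drawn from a single uniform set, and 6 of the 58 groups checked had it. Each group here pooled libraries of both batches, and the groups shared libraries, so the 5% is a rough guide only. Itgam differed between batches, with an interaction of 6.64 on the log2 scale, for which the flox libraries of batch 2 were all at 0.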

How the results depend on the processing

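The count of called mouse members was 7 with DESeq2, RLE scaling, no filter and a filter by design (an alternative chosen after seeing the data), 5 with limma voom, 6 in batch 2 alone and 6 without knockout libraries 6 and 7. It was 2 in batch 1 alone and 1 (Folr2) with no batch term, and between 4 and 7 when each library was left out, with 4 without knockout library 5, flox library 3 or flox library 4. Fewer libraries enter a batch alone; the cause of the drop with no batch term was not tested. The count was 0 in monkeys under every alternative, including the added ones, and 1 for the interaction.

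Replicate numbers did not pair the libraries: deviations of same-numbered libraries correlated between -0.187 and 0.228 in mice (6 pairs, 5 of 12 libraries best with their own number) and between -0.362 and 0.279 in monkeys (3 pairs, 2 of 6). With the replicate block, 6 mouse members and 0 monkey members were called; Arg1 was lost (adjusted p = 0.0573), and ADGRE1 and MRC1 turned to 0.42 and 0.21 and TYROBP to -0.064.

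No called member changed sign. Signs of uncalled members turned as follows, as log2 values, and the cause was not tested. In batch 2 alone Irf8 was 0.23, Csf1r 0.028, Aif1 0.12, Mrc1 0.34, Lyve1 0.41 and Spp1 0.015. In batch 1 alone and without knockout libraries 6 and 7, Adgre1 was -0.23 and -0.056, Fcgr1 -0.70 and -0.15, and Trem2 -0.11 and -0.11. With limma voom Msr1 was 0.027, ADGRE1 0.62 and TYROBP -0.080; with DESeq2 and RLE scaling ITGAM was 0.0062 and 0.0086 and TYROBP -0.0016 and -0.0011, and with no filter TYROBP was -0.017. Leaving out single libraries gave ranges across 0 for Csf1r (-0.21 to 0.0071), Irf8 (-0.28 to 0.043), Fcgr1 (-0.022 to 0.32), Mrc1 (-0.26 to 0.030) and Msr1 (-0.45 to 0.11) in mice. In monkeys they were ADGRE1 (-0.60 to 1.203), AXL (-1.15 to 3.80), CD68 (-0.096 to 1.44), CSF1R (-0.33 to 0.022), FOLR2 (-1.33 to 0.25), GPNMB (-1.78 to 0.55), ITGAM (-0.34 to 0.55), ITGAX (-0.86 to 0.41), LYVE1 (-2.26 to 0.99), MRC1 (-1.32 to 1.16), MSR1 (-0.44 to 0.46), SPP1 (-0.42 to 0.062) and TYROBP (-0.24 to 0.26).

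Rescaling each library's TPM to the same sum kept the rank of 25 of 31 members, with no shift over 1 rank, and moved Lyz2 from 356 to 423. Leaving out vehicle library 3 together with SADBE library 1 was added after seeing the data. With edgeR it called 171 of 18666 genes, against 0 with all libraries, and 0 members. The pair was picked because its expression resembled the other group, which by itself widens the difference between labels, so these calls are not used as results. Without the pair CSF1R turned to 0.0186, ADGRE1 to 1.54, ITGAM to 0.105, ITGAX to 0.840 and MSR1 to -0.600.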
